A study of Drosophila melanogaster with 12 samples.

Results

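The mitochondrial ribosome translates the few messenger RNAs that the mitochondrial genome encodes, most of them subunits of the respiratory chain. Its RNAs come from the mitochondrial genome, whereas all of its proteins are encoded in the nucleus, made in the cytosol and imported. The particle has a large subunit, which forms peptide bonds, and a small subunit, which reads the message. Some of its proteins have counterparts in the bacterial ribosome and others are specific to mitochondria. In *Drosophila* the genes of the large subunit are named mRpL and those of the small subunit mRpS. The wing imaginal disc is the larval epithelium that forms the adult wing and notum, and it grows and proliferates until metamorphosis.

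All genes whose symbol in the probe annotation starts with mRpL or mRpS were taken, 69 of the 12131 genes with a probe of a single symbol. Of these, 43 belong by name to the large subunit and 26 to the small subunit, and each had 1 probe. Classed from general knowledge of their counterparts in other species, 42 have a bacterial relative and 27 are specific to mitochondria. The names do not settle the position in every case: in mammals the counterparts of mRpS30 and mRpS18A lie in the large subunit, but here both were counted by name.

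RNA from dissected wing discs of *ash2* and *ash1* mutants, genes of the trithorax group of transcriptional regulators, was hybridised to long-oligonucleotide arrays against a reference of pooled wing disc RNA from the isogenic line w1118;+;+. The mutants were w1118;+;ash2-I1, w1118;+;ash2-112411 and w1118;+;ash1-22/ash1-22F2A, taken as larvae of the last instar, staged with bromophenol blue, that were Tb+ and so lacked the balancer. For each allele, 2 RNA extractions were each hybridised to 2 arrays with the dyes Cy3 and Cy5 exchanged, 12 arrays in all. Chromosomes X, Y and 2 of the mutant stocks had been replaced by those of the isogenic line, so the third chromosome, which carries both mutations, was not of the same origin in mutants and reference. By the study's account ash2-I1 and ash1-22 larvae die around pupariation, ash1-22 being a null allele, whereas ash2-112411 is weaker and lets animals reach the pharate adult. Every allele was compared with the same pool, whose own error is part of no SE given here and is shared by the alleles. In a tissue sample, fewer cells of a kind and less RNA per cell cannot be told apart.

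All values are log2 ratios of mutant over reference, so that 0 means an equal signal in mutant and reference. A gene was called when its adjusted p was under 0.05 and its ratio over 1.5-fold, a log2 ratio of 0.58. Errors are SEs of the mean of 2 extractions, from 1 spread per probe that the tested alleles share and that is drawn toward the spread of all probes. They do not measure how far apart the extractions of a single allele were. The arrays had 5804 to 11179 spots with a value and measured 53 to 68 of the 69 genes. The *ash2* probe, which checks the labels, fell on every array that measured it in both *ash2* alleles, to between -2.21 and -1.21 in ash2-I1 and between -2.07 and -1.47 in ash2-112411, and was 0.19 and 0.34 on the 2 ash1-22 arrays that measured it. The *ash1* gene was not analysed here, because no probe carried its symbol.

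The mitochondrial ribosomal protein genes were higher in both *ash2* alleles and, as a whole, near the reference in ash1-22. The median of the 64 genes tested in ash2-I1 was 0.32, against 0.02 for all genes tested. The median of the 67 tested in ash2-112411 was 0.25, against 0.00 for all genes, and the median of the 67 tested in ash1-22 was -0.01, against 0.01. The 4 array medians of ash2-I1 lay between 0.16 and 0.39, those of ash2-112411 between 0.13 and 0.36 and those of ash1-22 between -0.03 and 0.03. No array of an *ash2* allele overlapped with an array of ash1-22 in this median.

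In ash2-I1, 40 of the 64 genes (62.5%) were higher at an adjusted p under 0.05 and 3 (4.69%) were lower, where 17.9% of all genes tested were higher and 19.8% lower. In ash2-112411, 34 of 67 (50.7%) were higher and 5 (7.46%) lower, where 24% of all genes were higher and 26.3% lower. In ash1-22, 6 of 67 (8.96%) were higher and 1 (1.49%) lower, where the shares of all genes were 4.85% and 6.51%. Most of these shifts were small. Over 1.5-fold, ash2-112411 had 16 genes up (23.9%, background 8.35%), ash2-I1 had 6 (9.38%, background 5.45%) and ash1-22 had 3 (4.48%, background 1.79%).

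No member was called down over 1.5-fold in any allele by limma, where the background was 1.18% of all genes for ash1-22, 6.73% for ash2-I1 and 8.59% for ash2-112411. At an unadjusted p under 0.05 and with no fold threshold, 9 of 67, 3 of 64 and 6 of 67 members were lower, in that order of the alleles. Of all genes tested, 1355 of 8142, 1632 of 6897 and 2841 of 9734 were lower. The corresponding count of higher members in ash1-22 was 16 of 67, beside 1087 of 8142 for all genes.

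**Figure D1:**
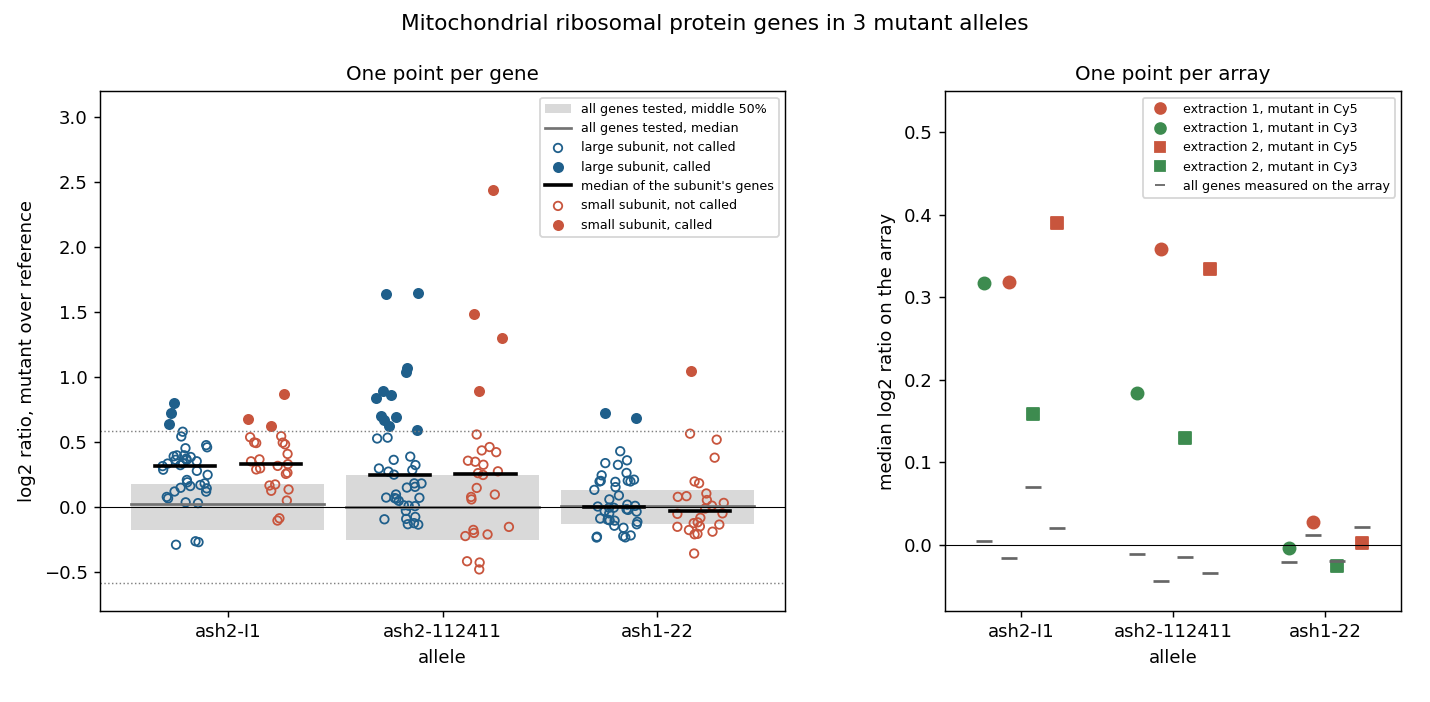
Log2 ratios of the mitochondrial ribosomal protein genes by allele and subunit (left; 1 point per gene, filled when called, black bars the medians, grey bands the middle of all genes tested, dotted lines 1.5-fold), and the median over these genes on each array (right; circles and squares the 2 extractions, colour the dye of the mutant, dashes the median of all genes measured on that array). The points of both *ash2* alleles lie mostly above 0, with array medians of 0.13 to 0.39, and those of ash1-22 are spread around 0, with array medians of -0.03 to 0.03.

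Both subunits shared the shift. In ash2-I1, 23 of 39 large subunit genes (59%) and 17 of 25 small subunit genes (68%) were higher, beside 17.9% of all genes. Their medians were 0.31 and 0.33. In ash2-112411 the counts were 21 of 41 (51.2%) and 13 of 26 (50%), beside 24% of all genes, and both medians were 0.25. In ash1-22 they were 3 of 41 (7.32%) and 3 of 26 (11.5%), beside 4.85% of all genes, with medians of 0.00 and -0.03. Over 1.5-fold in ash2-112411 there were 12 of 41 large (29.3%) and 4 of 26 small subunit genes (15.4%), beside 8.35% of all genes. The 3 members that were lower in ash2-I1 were large subunit genes (7.69%), beside 19.8% of all genes. The 5 in ash2-112411 were small subunit genes by name (19.2%), beside 26.3% of all genes. The subunits were not tested against each other.

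Genes with a bacterial counterpart and genes specific to mitochondria had ash2-I1 medians of 0.32 and 0.31, ash2-112411 medians of 0.21 and 0.27 and ash1-22 medians of 0.00 and -0.01. In ash1-22, 6 of 42 genes with a bacterial counterpart (14.3%) and none of 25 specific to mitochondria were higher, beside 4.85% of all genes. Among those specific to mitochondria 1 (4%), mRpS34, was lower, beside 6.51% of all genes. These classes were not tested against each other. The members are spread over the genome, with 10 on chromosome X, 22 on chromosome 2 and 37 on chromosome 3. The 3 groups had medians of 0.35, 0.34 and 0.29 in ash2-I1 and of 0.30, 0.25 and 0.25 in ash2-112411. Chromosomes X and 2 are those shared with the reference line. In ash1-22 the medians were -0.01, -0.02 and 0.08.

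**Figure D2:**
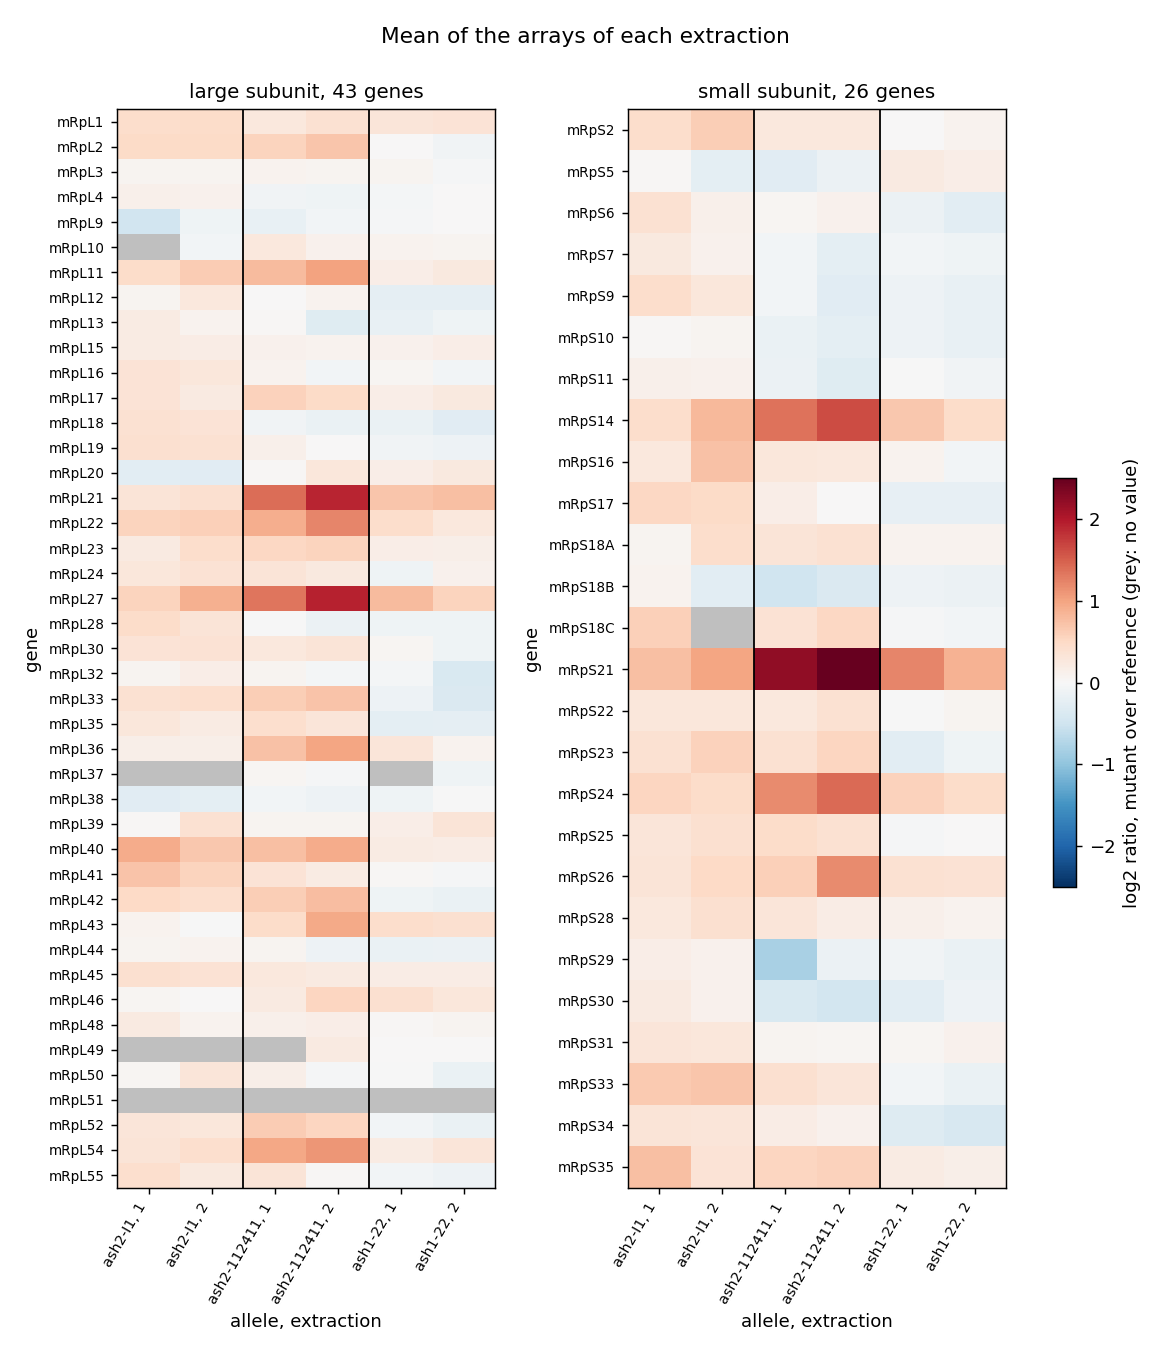
Log2 ratio of each of the 69 genes in each extraction (columns; mean of its arrays), large subunit left and small subunit right, red above and blue below the reference, grey where no array measured the gene. The deepest red lies in the ash2-112411 columns of a few genes, mRpS21 at 2.21 and 2.67 above all, while the pale red of the ash2-I1 columns covers most rows.

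Array values of single genes are given below in the order of extraction 1 with the mutant in Cy3 and in Cy5, then extraction 2 with the mutant in Cy3 and in Cy5, and the fitted ratio follows with its SE and adjusted p.

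The gene with the highest ratio in every allele was mRpS21, the counterpart of the bacterial protein S21, a short basic protein of the small subunit. In ash2-112411 its array values were 1.93, 2.49, 2.01 and 3.33, all above those of both other alleles, and the fitted ratio was 2.44 ± 0.13, adjusted p = 8.52e-05, 5.42-fold. In ash1-22 they were 1.24, 1.20, 0.90 and 0.86, with a fitted ratio of 1.05 ± 0.13, adjusted p = 0.00589. In ash2-I1 they were 1.03, 0.47, 1.06 and 0.92, with a fitted ratio of 0.87 ± 0.13, adjusted p = 0.00205. It was one of 2 members called in all 3 alleles.

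The other was mRpL27, whose bacterial counterpart reaches into the peptidyl transferase centre of the large subunit. Its arrays gave 1.65, 1.03, 1.55 and 2.32 in ash2-112411, a fitted ratio of 1.64 ± 0.15, adjusted p = 0.000217. The ash1-22 arrays lay close together at 0.78, 0.81, 0.53 and 0.60, with a fitted ratio of 0.68 ± 0.15, adjusted p = 0.0298. Those of ash2-I1 were far apart at 1.04, 0.09, 1.18 and 0.59, lower with the mutant in Cy5 in both extractions, and the fitted ratio was 0.72 ± 0.15, adjusted p = 0.00707. With only the Cy5 arrays the ash2-I1 ratio was 0.34 and was not called, and without extraction 2 it was 0.56 and was not called.

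The gene mRpL21, another large subunit protein with a bacterial counterpart, was called in ash2-112411 and ash1-22. Its array values in ash2-112411 were 1.02, 1.75, 1.29 and 2.52 and the fitted ratio was 1.65 ± 0.12, adjusted p = 0.000127, 3.13-fold. In ash1-22 it was measured on 3 arrays, at 0.70, 0.68 and 0.75, with a fitted ratio of 0.72 ± 0.12, adjusted p = 0.0122. In ash2-I1 the 3 measured arrays gave 0.34, 0.32 and 0.39 and the fitted ratio was 0.36 ± 0.12, adjusted p = 0.0428, higher but under 1.5-fold.

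The calls in ash1-22 rested on both extractions. Without extraction 1, none of the 3 genes was called (ratios of 0.88 for mRpS21, 0.57 for mRpL27 and 0.75 for mRpL21). Without extraction 2, mRpS21 alone was called, mRpL27 being at 0.80 and mRpL21 at 0.69. The other members higher in ash1-22 were mRpS14 (0.56 ± 0.11, adjusted p = 0.0244), mRpS24 (0.52 ± 0.08, adjusted p = 0.0117) and mRpL1 (0.32 ± 0.07, adjusted p = 0.0277).

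Among small subunit genes, mRpS14, the counterpart of a protein of the subunit's head, was called in both *ash2* alleles. Its arrays gave 0.89, 1.81, 1.00 and 2.25 in ash2-112411 and 0.27, 0.62, 0.70 and 0.92 in ash2-I1, so the lowest ash2-112411 array and the highest ash2-I1 array overlapped. The fitted ratios were 1.49 ± 0.11, adjusted p = 0.000147 and 0.62 ± 0.11, adjusted p = 0.00436. The ash2-I1 call was lost without extraction 2, at 0.44. The array values of mRpS24, the mitochondrial counterpart of the bacterial protein S3 at the entry of the message, were 0.94, 1.43, 0.87 and 1.95 in ash2-112411 and 0.42, 0.65, 0.09 and 0.81 in ash2-I1. Its fitted ratio of 1.30 ± 0.08, adjusted p = 0.000106 was called in the former, and that of 0.49 ± 0.08, adjusted p = 0.00295 in the latter was higher but under 1.5-fold. The mitochondria-specific mRpS26 had 0.82, 0.37, 1.04 and 1.33 on the arrays of ash2-112411, lowest on the Cy5 array of extraction 1, and a fitted ratio of 0.89 ± 0.13, adjusted p = 0.00131.

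Large subunit genes with their highest ratios in ash2-112411 also included mRpL22, whose bacterial counterpart lines the tunnel through which the new peptide leaves. Its arrays gave 0.75, 1.07, 0.90 and 1.54 there, a fitted ratio of 1.07 ± 0.09, adjusted p = 0.000202, and 0.57, 0.56 and 0.59 on the 3 arrays that measured it in ash2-I1, a fitted ratio of 0.58 ± 0.09, adjusted p = 0.00263. The ash2-I1 ratio lay just under the fold threshold. The mitochondria-specific mRpL54 was the most even of the group, with 0.95, 0.99, 1.04 and 1.18 in ash2-112411 and a fitted ratio of 1.04 ± 0.07, adjusted p = 0.000127. For mRpL11, whose bacterial counterpart forms the base of the stalk that receives elongation factors, the arrays gave 0.49, 1.08, 0.67 and 1.34, a fitted ratio of 0.89 ± 0.08, adjusted p = 0.000251. For mRpL36, a small protein with a bacterial counterpart, they gave 0.39, 1.09, 0.45 and 1.51, a fitted ratio of 0.86 ± 0.09, adjusted p = 0.000342, and the ash2-I1 arrays of this gene lay on both sides of 0 at -0.04, 0.31, -0.07 and 0.36.

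Of the 16 members called up in ash2-112411, 15 had their highest value on the Cy5 array of extraction 2 and 11 their lowest on the Cy3 array of extraction 1, and all 16 were above 0 on every array that measured them. Over the members the Cy5 array exceeded the Cy3 array of the same extraction by a median of 0.23 and 0.28 in this allele. The same medians for extractions 1 and 2 were -0.01 and 0.23 in ash2-I1 and 0.005 and 0.03 in ash1-22. With the Cy3 arrays alone 10 members were called in ash2-112411, and with the Cy5 arrays alone 21. Each extraction mean holds both dyes where both arrays measured the gene. In a fit with a dye term for each probe 16 members were called up and the median was 0.25, as without it. For genes measured with both dyes in every extraction that fit cannot change the ratio, so the equal values do not test the dye.

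**Figure D3:**
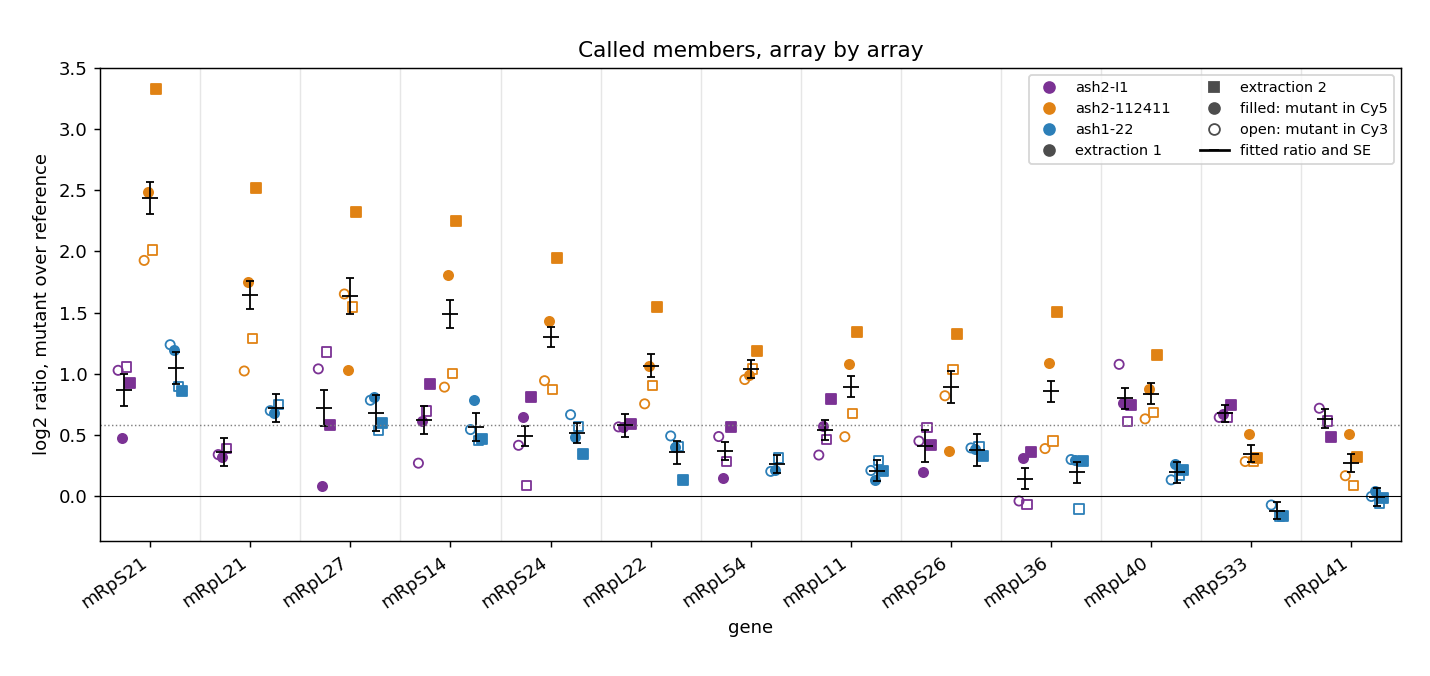
Log2 ratio on each array for the members named among the called genes (x axis, in order of their ratio in ash2-112411), with circles and squares for the extractions, filled symbols for the mutant in Cy5 and open ones for Cy3, and black bars for the fitted ratio and its SE. For mRpS21 all 4 ash2-112411 arrays, 1.93 to 3.33, lie above the arrays of the other alleles, while for mRpS33 the ash2-I1 arrays, 0.64 to 0.75, are the highest.

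Other genes were about as high in ash2-I1 as in ash2-112411, or higher. The mitochondria-specific large subunit gene mRpL40 was called in both, with 1.08, 0.77, 0.61 and 0.75 in ash2-I1 and 0.63, 0.88, 0.69 and 1.15 in ash2-112411, and fitted ratios of 0.80 ± 0.08, adjusted p = 0.000447 and 0.84 ± 0.08, adjusted p = 0.000332. The 2 sets of arrays overlapped almost entirely. In ash1-22 its arrays were at 0.13, 0.26, 0.17 and 0.22, below every *ash2* array. The arrays of mRpS33, also specific to mitochondria, were at 0.64, 0.67, 0.64 and 0.75 in ash2-I1, with a fitted ratio of 0.68 ± 0.07, adjusted p = 0.000394, and at 0.28, 0.51, 0.28 and 0.31 in ash2-112411, with no overlap and a fitted ratio of 0.35 ± 0.07, adjusted p = 0.00497. On the 3 ash1-22 arrays that measured it, mRpS33 was at -0.07, -0.17 and -0.17. For mRpL41, specific to mitochondria and placed near the tunnel exit in mammals, the 3 measured ash2-I1 arrays gave 0.72, 0.61 and 0.49, a fitted ratio of 0.63 ± 0.08, adjusted p = 0.000759, and the ash2-112411 ratio was 0.27 ± 0.08, adjusted p = 0.0209. The ash2-I1 call of mRpL41 was lost without extraction 1, at 0.55, which is under 1.5-fold.

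The remaining members called in ash2-112411 were mRpL43 at 0.70, mRpL42 at 0.69, mRpL33 at 0.67, mRpL2 at 0.62 and mRpL52 at 0.59, all of the large subunit. With all arrays brought to a common scale mRpL42 was at 0.53 and mRpL33 at 0.49, and neither was called. With the Cy3 arrays alone they were at 0.33 and 0.56, and mRpL11 was at 0.5795 and mRpL36 at 0.42. All of these were under 1.5-fold. The 34 genes that were higher in ash2-I1 but under 1.5-fold had ratios of 0.25 to 0.58, and the 18 such genes in ash2-112411 ratios of 0.25 to 0.56.

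Few members were lower, and they are named here after their values were seen. In ash2-I1 these were mRpL9 (-0.29 ± 0.10, adjusted p = 0.0498), mRpL20 (-0.27 ± 0.08, adjusted p = 0.0332) and mRpL38 (-0.27 ± 0.07, adjusted p = 0.0185). The first of them, mRpL9, matters for the study's semi-quantitative RT-PCR, in which it served as the reference gene. Its arrays gave -0.42, -0.54, -0.10 and -0.11 in ash2-I1, so the 2 arrays of extraction 1 were well below those of extraction 2, and -0.24, -0.13, -0.17 and 0.04 in ash2-112411 and -0.07, 0.00, -0.14 and 0.14 in ash1-22, where the ratios were -0.13 ± 0.10, adjusted p = 0.316 and -0.02 ± 0.10, adjusted p = 0.916. In ash2-112411 the lower members were mRpS29 (-0.48 ± 0.14, adjusted p = 0.0236), a GTP-binding protein known in mammals as DAP3, mRpS18B (-0.43 ± 0.10, adjusted p = 0.00795), mRpS30 (-0.42 ± 0.07, adjusted p = 0.00272), mRpS11 (-0.23 ± 0.07, adjusted p = 0.0337) and mRpS10 (-0.20 ± 0.07, adjusted p = 0.0399). Of these mRpS29 was measured on a single array in each extraction, at -0.81 and -0.15. In ash1-22 the lower member was mRpS34, with -0.38, -0.26, -0.37 and -0.41 on its arrays and a ratio of -0.36 ± 0.07, adjusted p = 0.0202.

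Some members could not be tested in every allele. No array measured mRpL51. In ash2-I1, mRpL37 and mRpL49 had no value, and mRpL10 and mRpS18C were measured in 1 extraction only, with mRpS18C at 0.61 and 0.57. In ash2-112411 mRpL49 and in ash1-22 mRpL37 were measured in 1 extraction.

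The alleles were next compared with each other, as the difference of their ratios in the same fit, in which the reference pool cancels. By the study's methods the arrays were scaled to a common spread within each allele. The deposited values differ in spread within and across alleles, with a median absolute deviation, scaled to match an SD, between 0.197 and 0.252 for ash1-22, between 0.277 and 0.382 for ash2-I1 and between 0.396 and 0.464 for ash2-112411, so sizes are compared across arrays of unequal spread. Between ash2-I1 and ash2-112411, 10 of 64 members (15.6%) were higher in ash2-I1 and 11 (17.2%) were lower at an adjusted p under 0.05, where 20% and 12.1% of all genes tested were. These shares are near the background. With all arrays brought to a common scale 13 members differed, 7 higher and 6 lower. No share of all genes is given for the common scale or for fits with extractions left out. A change in these counts may therefore not be particular to the members. Of the 21 differences 12, 9 of the higher and 3 of the lower, were under 1.5-fold. Without extraction 2 of ash2-112411, 2 members were higher and 5 lower, without extraction 1 of ash2-I1 2 were higher and 6 lower, without either extraction of ash1-22 4 were higher and 9 lower, and with the 4 arrays taken as replicates 4 were higher and 3 lower. The lower members included mRpS21 (-1.57 ± 0.19, adjusted p = 0.00303), mRpL21 (-1.28 ± 0.16, adjusted p = 0.00358), mRpS24 (-0.81 ± 0.11, adjusted p = 0.00445) and mRpL54 (-0.67 ± 0.10, adjusted p = 0.00585), the 4 with the lowest adjusted p. The others were mRpL27, mRpS14, mRpL36, mRpL43, mRpL22, mRpL20 and mRpL52, at -0.91 to -0.30. The higher members were mRpS29, mRpS30, mRpS9, mRpL18, mRpL28, mRpS17, mRpL41, mRpS11, mRpS33 and mRpL19, at 0.33 to 0.62. For mRpL40 the difference was -0.04 ± 0.12, adjusted p = 0.83 and for mRpS23 0.02 ± 0.12, adjusted p = 0.912, smaller than their SEs.

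Between ash2-I1 and ash1-22, 22 of 64 members (34.4%) were higher in ash2-I1 and 1 (1.56%), mRpL20, was lower, where 11.8% and 11.2% of all genes tested were. On the common scale 22 were higher and 4 lower. The lowest adjusted p values were those of mRpS33 (0.80 ± 0.10, adjusted p = 0.00224), mRpS34 (0.67 ± 0.10, adjusted p = 0.00376), mRpS17 (0.70 ± 0.10, adjusted p = 0.00388), the counterpart of a bacterial protein that binds the small ribosomal RNA early in assembly, and mRpL18 (0.59 ± 0.10, adjusted p = 0.00615). The ash2-I1 arrays were at 0.55, 0.10, 0.25 and 0.36 for mRpS34, 0.72, 0.30, 0.58 and 0.39 for mRpS17 and 0.36, 0.38, 0.34 and 0.36 for mRpL18. All of these were above 0, and the ash1-22 arrays of the same genes were all below 0, at -0.38, -0.26, -0.37 and -0.41, -0.19, -0.22, -0.13 and -0.29 and -0.09, -0.26, -0.41 and -0.17. In ash2-112411 the fitted ratios of these genes were 0.15 ± 0.07, adjusted p = 0.111, 0.09 ± 0.07, adjusted p = 0.3 and -0.13 ± 0.07, adjusted p = 0.147.

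Between ash2-112411 and ash1-22, 22 of 66 members (33.3%) were higher in ash2-112411 and 1 (1.52%), mRpS5, was lower, where 12.5% and 14.6% of all genes tested were. On the common scale the counts were 9 and 0, 9 members in all, with no share of all genes beside them. The lowest adjusted p values were those of mRpL33 (0.90 ± 0.11, adjusted p = 0.0042), mRpL42 (0.83 ± 0.10, adjusted p = 0.0042), mRpS21 (1.39 ± 0.19, adjusted p = 0.00493) and mRpL54 (0.78 ± 0.10, adjusted p = 0.00493). The arrays of mRpL33, a small protein with a bacterial counterpart, were at 0.60, 0.64, 0.52 and 0.90 in ash2-112411, 0.42, 0.33, 0.51 and 0.33 in ash2-I1 and 0.00, -0.23, -0.52 and -0.18 in ash1-22. Those of the mitochondria-specific mRpL42 were at 0.27, 0.95, 0.39 and 1.16, 0.34, 0.64, 0.17 and 0.68 and -0.16, -0.05, -0.21 and -0.11. Both genes were above 0 on every array of the *ash2* alleles and at or below 0 on every array of ash1-22. These comparisons share the extractions of an allele, so their counts are not independent. Without extraction 2 of ash1-22, 4 members differed between ash2-I1 and ash1-22 and 4 between ash2-112411 and ash1-22, and without its extraction 1 the counts were 7 and 10. Without extraction 1 of ash2-I1 the former count was 13, and without extraction 2 of ash2-112411 the latter was 15.

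**Figure D4:**
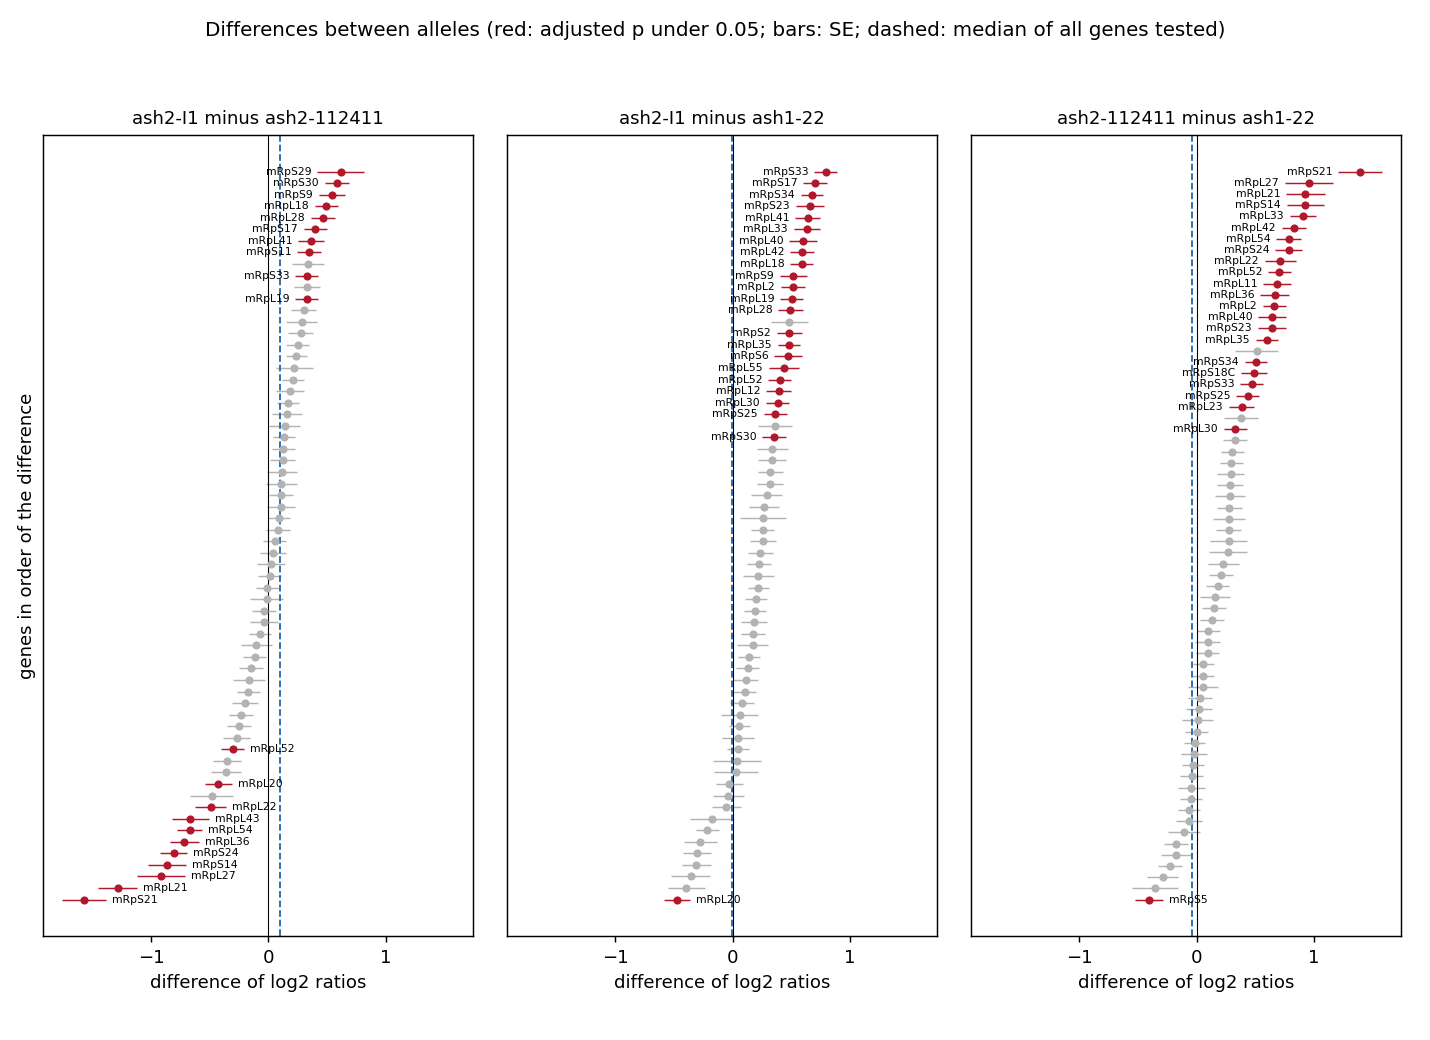
Difference between the log2 ratios of 2 alleles for each member (points, with SE bars), ordered by size within each panel, red and named where the adjusted p was under 0.05, with the median of all genes tested as a dashed line. Red points lie on both sides in the panel of the 2 *ash2* alleles, 10 higher and 11 lower, and almost only to the right in the panels against ash1-22, 22 higher and 1 lower in each.

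A list of 18 other nuclear genes of mitochondrial translation and transcription with a probe was counted in the same way. In ash2-I1, 7 of 16 (43.8%) were higher and none lower, beside 17.9% and 19.8% of all genes, with a median of 0.23. In ash2-112411, 3 of 17 (17.6%) were higher and 4 (23.5%) lower, which is about the 24% and 26.3% of all genes, with a median of -0.15. In ash1-22 none of 14 was higher and 1 (7.14%) was lower, beside 4.85% and 6.51% of all genes, with a median of -0.07. No gene of the list was called up over 1.5-fold. The gene called down was bsf, an RNA-binding protein of the pentatricopeptide repeat family, in ash2-112411. Its 3 measured arrays gave -0.87, -0.68 and -0.90, and its ratio was -0.83 ± 0.07, adjusted p = 0.000218, against -0.22 ± 0.07, adjusted p = 0.0525 in ash2-I1 and -0.28 ± 0.07, adjusted p = 0.052 in ash1-22. The gene bonsai, which encodes a protein of the small subunit under another name, had ratios of -0.03 ± 0.07, adjusted p = 0.834 (ash1-22), 0.19 ± 0.07, adjusted p = 0.0794 (ash2-I1) and -0.17 ± 0.07, adjusted p = 0.095 (ash2-112411). The ribosomal protein gene tko was not analysed here, because no probe carried its symbol.

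Between ash2-I1 and ash2-112411, 7 of 16 genes of the list (43.8%) were higher in ash2-I1 and none lower, beside 20% and 12.1% of all genes tested. The largest of these differences, named after it was seen, was that of mtTFB2, a mitochondrial transcription factor, at 0.85 ± 0.12, adjusted p = 0.00471. Its ratio was 0.52 ± 0.09, adjusted p = 0.00328 in ash2-I1 and -0.33 ± 0.09, adjusted p = 0.0163 in ash2-112411, on opposite sides of the reference. The elongation factor gene mEFTs, which the rule for named genes does not cover, had fitted ratios above 0 in both *ash2* alleles. They were 0.31 ± 0.07, adjusted p = 0.0122 in ash2-I1 and 0.33 ± 0.07, adjusted p = 0.00728 in ash2-112411. With the mutant in Cy5 its arrays were at 0.60 and 0.64 in ash2-I1 and at 0.73 and 0.56 in ash2-112411. With the mutant in Cy3 they were at -0.12 and 0.14 and at 0.004 and 0.02, so the rise lay mainly on the Cy5 arrays.

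Markers of tissues other than the disc epithelium also changed on these arrays. Of all genes tested, 1.79% were called up in ash1-22, 8.35% in ash2-112411 and 5.45% in ash2-I1. Of the muscle markers, ash1-22 had 3 of 9 called up with a median of 0.21. In ash2-112411 3 of 10 muscle markers were called up with a median of 0.43, and in ash2-I1 3 of the 6 tested with a median of 0.97. Among them Mlc2, a myosin light chain, was at 0.82 ± 0.20, 1.37 ± 0.20 and 2.15 ± 0.20 in this order of the alleles. In contrast, Mlc1 (1.29, 0.52 and 1.82) and Mp20 (1.67, 0.97 and 2.04) were lowest in ash2-112411. The marker TpnC73F was highest in ash2-112411, at 0.68, and Prm was below the reference in ash2-I1, at -0.21. Of the wing disc patterning genes, 2 of 6, 4 of 6 and 4 of 5 were called down in the same order, beside 1.18%, 8.59% and 6.73% of all genes. Among these vg was at -0.25, -0.81 and -1.10, while salm was called up in ash2-112411 at 0.69. Of the fat body markers Tsf1 alone was called, up in all 3 alleles. The others stood apart on the arrays of ash1-22 extraction 1, with Lsp2 at 4.38 and 3.99, Fbp2 at 3.83 and 4.27 and Fbp1 at 2.26, where extraction 2 had Lsp2 at -0.35, Fbp1 at -0.13 and no value for Fbp2. In ash2-I1, Lsp2 ran the other way, at -1.67, -2.13 and -1.62 on the arrays that measured it. Of the nervous system markers elav and para were called down in ash2-I1, where brp was at 0.19. In ash2-112411 elav was above the reference, at 0.48. Both elav and para were lower with the mutant in Cy5 in both *ash2* alleles. For elav the ash2-I1 arrays gave 0.19 with Cy3 and -1.59 and -1.29 with Cy5. Its ash2-112411 arrays gave 1.28 and 1.15 with Cy3 and -0.45 and -0.08 with Cy5. Of the trachea markers btl was called up in ash2-112411, where verm was at -0.003 and serp at -0.19. No hemocyte, salivary gland or adult muscle precursor marker was called in any allele. The part of these tissues in the ratios of the mitochondrial ribosomal protein genes was not tested.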

How the data were processed

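Mutant and reference wing disc RNA were hybridised together on 12 arrays, 4 to an allele. The deposited log2 values are, per the study's methods and the labels, ratios of Cy5 over Cy3 that the authors quantified with GenePix, cleared of spots failing quality thresholds, background corrected with normexp, normalized within arrays with OLIN and scaled among the 4 arrays of an allele to an equal median absolute deviation. The deposited values do not show that equality, with 0.277 to 0.382 among the ash2-I1 arrays, for example. Signals of single channels were not used here. The sign was turned where Cy3 held the mutant. The number of arrays limits the precision.

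Each extraction entered as the mean of its dye-swapped pair. A linear model (limma 3.58.1, R 4.3.3) was fitted to the 6 extractions over 11610 probes of a single gene symbol, with 1 mean per allele tested against 0, contrasts between alleles, and 1 spread for each probe. Testing needed a value in both extractions. Where an extraction had 1 array its value carries that array's dye effect. The Benjamini-Hochberg adjustment ran over all probes tested in a comparison. Counts over genes use the probe measured on the most arrays. The study's filter, at least 2 of 4 spots, is met by every probe tested. The script recovered known changes on simulated data, and no recovery rate is given here for changes as small as those of most members.

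Members and gene lists were chosen with earlier results of these data known. Named genes were, per allele, up to 6 called members of each subunit with the largest change in each direction, members called in all alleles or in opposite directions, per pair of alleles the 4 members with the lowest adjusted p, mRpL9, ash2, ash1, called genes of the mitochondrial translation list, tko and bonsai. The annotation is that of the platform, and all 69 symbols matched current RefSeq symbols. RefSeq now lists 73 such symbols. A probe listing 2 symbols, 1 of them of this family, was left out. No paired design applied: the extraction numbers only name samples, since deviations of same-numbered extractions correlated at 0.09, -0.05 and -0.13 over the 3 pairs of alleles. The arrays of an extraction were averaged because they are dye swaps of 1 replicate. In the alternative fits to single arrays they correlated negatively around the fit, at -0.46, and at -0.30 with a dye term. Alternatives covered the array scale, centring, array and extraction as replicates, measurement on all 4 arrays, separate fits, extractions left out and, chosen after seeing the data, the dye.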

Additional observations from a re-analysis of the deposited data

Results flagged for a closer look

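On 2 of the 53 sets of 4 arrays looked at for the named genes and the array medians, 1 array lay far from the others, and chance marks about 1 in 20 such sets. In ash2-112411, mRpS33 was at 0.51 on the Cy5 array of extraction 1 and at 0.28 to 0.31 on the other arrays. In ash1-22, mRpL36 was at -0.10 on the Cy3 array of extraction 2 and at 0.29 to 0.30 on the others.

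The members named for their difference between alleles were marked because the contrast of the fit itself passed an adjusted p under 0.05. Between ash2-I1 and ash2-112411 these were mRpS21 (-1.57), mRpL21 (-1.28), mRpS24 (-0.81) and mRpL54 (-0.67), all lower in ash2-I1. Between ash2-I1 and ash1-22 they were mRpS33 (0.80), mRpS17 (0.70), mRpS34 (0.67) and mRpL18 (0.59), all higher in ash2-I1. Between ash2-112411 and ash1-22 they were mRpS21 (1.39), mRpL33 (0.90), mRpL42 (0.83) and mRpL54 (0.78), all higher in ash2-112411.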

How the results depend on the processing

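With the arrays brought to a common scale, 11 members were up over 1.5-fold in ash2-112411, 6 in ash2-I1 and 6 in ash1-22. The fit used above had 16, 6 and 3, so the alleles were closer on the common scale. The medians on that scale were 0.30 in ash2-I1 and 0.19 in ash2-112411. On it 13 members differed between the *ash2* alleles and 9 between ash2-112411 and ash1-22. With array medians set to 0 the medians were 0.30 and 0.27. With only the Cy5 arrays, 10 members were up in ash2-I1 and 0 in ash1-22, 1 was down in ash2-112411, the medians were 0.35, 0.35 and 0.0392, and 13 members differed between the *ash2* alleles. With only the Cy3 arrays, 10 were up in ash2-112411 and the medians were 0.23, 0.14 and -0.0208. With 4 arrays as replicates 7 members differed between the *ash2* alleles, and with a random extraction block and a dye term 32, where the ash1-22 median was 0.0076. With genes measured on all 4 arrays that median was 0.0084. The causes were not tested.

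Leaving out each extraction in turn, the counts and medians took these ranges. Members up numbered 0 to 3 in ash1-22, and members down 0 to 1 in ash2-112411. The medians were 0.30 to 0.32 in ash2-I1, 0.22 to 0.26 in ash2-112411 and -0.0068 to 0.0083 in ash1-22. Members that differed numbered 7 to 20 between the *ash2* alleles, 4 to 24 between ash2-I1 and ash1-22 and 4 to 25 between ash2-112411 and ash1-22. A lone extraction was assumed to vary like the others.

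In the fit with the extraction number as replicate block, which pairs samples that share only a number, 18, 20 and 20 members differed and 6, 16 and 3 were up.

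Of the 22 called ratios of named genes, none changed sign under the 17 alternatives, and 352 of 370 values kept their call. Some of these alternatives cannot move a ratio: leaving out extractions of other alleles, fitting each allele alone and averaging over probes. Their kept signs were fixed in advance, and their calls could change only through the adjusted p. Signs changed for uncalled ratios: mRpL41 in ash1-22 (-0.034 to 0.0205 leaving out extractions, 0.0149 with Cy5 arrays), mRpL36 in ash2-I1 (-0.0532 with Cy3 arrays), mRpS34 in ash2-112411 (-0.11 with Cy5 arrays) and mRpL9 in ash1-22 (-0.0371 to 0.0006 leaving out extractions, 0.0704 with Cy5 arrays).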
